A study of Mus musculus with 4 samples.

Results

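The mRNAs of 8 genes reported as bound by HuR (Sirt1, Hif1a, Vegfa, Mcl1, Bcl2, Xiap, Ptma and Bcl2l1) were followed in mouse liver. They were named by symbol as reported HuR-bound transcripts, by a rule that uses no measured value but was set with earlier results of these data known, and are 8 of the 46603 Ensembl genes in the count table. Total liver RNA of 4 male mice was sequenced, and 1 library was made from each mouse. All 4 were HuRflox/flox mice on a C57BL/6 J background. Every one received an AAV8 vector into the tail vein and was fed a Western diet with a fructose and glucose solution as drink (WDSW) for 4 weeks, and the age of the mice is not given in the sources used here. Control mice 1 and 2 received AAV8-TBGP-GFP, and HuR hKO mice 3 and 4 received AAV8-TBGP-Cre, in which the thyroxine-binding globulin promoter confines Cre to hepatocytes. HuR in the other cells of the liver is therefore not targeted, and a whole liver sample holds RNA of all of them. No mice on another diet or without the floxed allele were analysed here. The question put to these libraries was whether the mRNA levels of the 8 genes differed between the livers labelled control and those labelled HuR hKO.

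HuR, encoded by Elavl1, is an RNA-binding protein that moves between nucleus and cytoplasm and binds U-rich and AU-rich stretches, mostly in the 3′ untranslated region (3′ UTR) and in introns. Binding is known to slow the decay of many mRNAs and to raise or lower the translation of others, so a change in HuR can act on a bound mRNA without changing its level. The 8 mRNAs encode proteins of cell survival and stress responses. Mcl1, Bcl2 and Bcl2l1 (the gene of BCL-XL) encode anti-apoptotic members of the BCL2 family, Xiap encodes a caspase inhibitor, and Ptma encodes prothymosin alpha, a small acidic nuclear protein that restrains the apoptosome. Hif1a encodes the oxygen-regulated subunit of the hypoxia factor HIF-1, Vegfa the growth factor for endothelial cells that HIF-1 induces, and Sirt1 an NAD-dependent deacetylase of metabolic regulators.

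To show what kind of stretch HuR is known for, the 30 bases of each annotated 3′ UTR with the most copies of ATTTA, the core of the AU-rich element with T for U, are given below, with every ATTTA in capitals. They are from GENCODE M21 transcripts on GRCm38, 5′ to 3′ on the mRNA strand, and were picked by letters alone, so they are not measured binding sites.
Sirt1, chr10:63319423-63319452, minus strand: ATTTAaatattcatgtgggtttagtATTTA
Hif1a, chr12:73945998-73946027, plus strand: ATTTAaaatgcacctttttATTTATTTAtt
Vegfa, chr17:46017178-46017207, minus strand: ttaattttaatatttgttatcATTTATTTA
Mcl1, chr3:95662590-95662619, plus strand: ATTTAtccttgatcatagtttgcttATTTA
Bcl2, chr1:106543003-106543032, minus strand: tATTTAggaaaaaaaagATTTATTTATTTA
Xiap, chrX:42105460-42105489, plus strand: ATTTActtggaATTTAttggagttataaat
Ptma, chr1:86530272-86530301, plus strand: tttgtattttttATTTAcattttatatttt
Bcl2l1, chr2:152780904-152780933, minus strand: tactatttttgttaagcgtgtctgtATTTA
The Bcl2 stretch held 4 copies and that of Hif1a held 3, several of them overlapping, while the stretches of Ptma and Bcl2l1 held 1 each.

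Counted over the longest annotated 3′ UTR of each gene, on the mRNA strand and with overlapping copies included, all 8 mRNAs held ATTTA. The motif was present in 69.5% of the 11943 tested genes with an annotated 3′ UTR, with a median of 2 copies, against a median of 8 in the 8 mRNAs. Xiap had 16 copies in 4672 bases and Bcl2 had 15 in 5086 bases, more than 98.2% and 97.8% of these genes respectively. Vegfa had 9 copies, Hif1a and Mcl1 had 8 each, and Sirt1 had 7, in 3′ UTRs between 1631 and 2353 bases long. Ptma had 2 copies in 700 bases and Bcl2l1 had 1 in 1477 bases, near or below the median gene in number of copies. The median density was 3.41 copies per 1000 bases in the 8 mRNAs and 1.3 in the tested genes, with Ptma at 2.86 and Bcl2l1 at 0.68. The longer form TATTTAT, which contains ATTTA, was found in 6 of the 8, all but Xiap and Ptma, and in 29.8% of the tested genes. A run of TTTTT was found in all 8 and in 77.6% of the tested genes, with 18 overlapping copies in the short 3′ UTR of Ptma.

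The libraries held between 13032095 and 19715577 counts on genes, the largest being that of mouse 4, and 3 counts, the level a count of 0 allows, were between 0.152 and 0.23 counts per 1000000 counts of a library (CPM). This limit covers counting error only, while the intervals of fold changes below are edgeR's and include the spread between mice. Values in CPM use library sizes after TMM scaling (factors 0.957 to 1.04). All 8 genes passed the filter on low counts that kept 13001 genes. Groups were compared with edgeR's quasi-likelihood test and Benjamini-Hochberg adjustment over these 13001 genes. A two-sided exact permutation of 2 against 2 mice has 0.333 as its lowest possible p, and the edgeR p-values instead borrow the spread of other genes. Hepatocyte markers (Alb, Apoa1, Hnf4a and 5 others) were all counted, with a summed level between 71305 and 81871 CPM.

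The transcript of Elavl1 itself, the gene that Cre was to delete, had more reads in the libraries labelled HuR hKO and not fewer. It had 377 and 347 counts in control mice 1 and 2, and 541 and 648 in mice 3 and 4. Its level was 28.4 and 25.9 CPM in the control mice, and 37.7 and 34.4 CPM in the mice labelled HuR hKO, so the groups did not overlap and the Cre group was the higher one. Its log2 fold change, with its standard error (SE), was 0.41 (SE 0.14, edgeR adjusted p = 0.545). The gene total does not show which exons the reads came from, so a transcript that lacks the floxed part would still be counted. Ccl25 lies across its end in antisense, with 46 and 57 counts in control mice 1 and 2 and 33 and 50 in mice 3 and 4. Whether reads were counted by strand is not given, and the part of Ccl25 in the Elavl1 total was not tested. The total therefore neither shows nor excludes the deletion. The authors report reduced HuR mRNA and protein in livers of HuR hKO mice on this diet, and those measures were not examined here. Every direction below is that of the labels, which this total does not follow.

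None of the 8 mRNAs differed between the groups past the threshold. At an adjusted p-value under 0.05 from edgeR, 0 of the 8 were called, and 3 of the 13001 genes tested were (0.0231%). At an unadjusted p-value under 0.05, 0 of the 8 passed, where 7.43% of the genes tested did. DESeq2 and limma-voom called 0 of the 8 as well, adjusted or not. The fitted value was above 0 for 3 and below 0 for 5, with log2 fold changes between -0.36 and 0.26. Their median was -0.05, against 0.002 over all genes tested. The median absolute log2 fold change was 0.15 in the 8 and 0.16 in all genes tested.

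**Figure D1:**
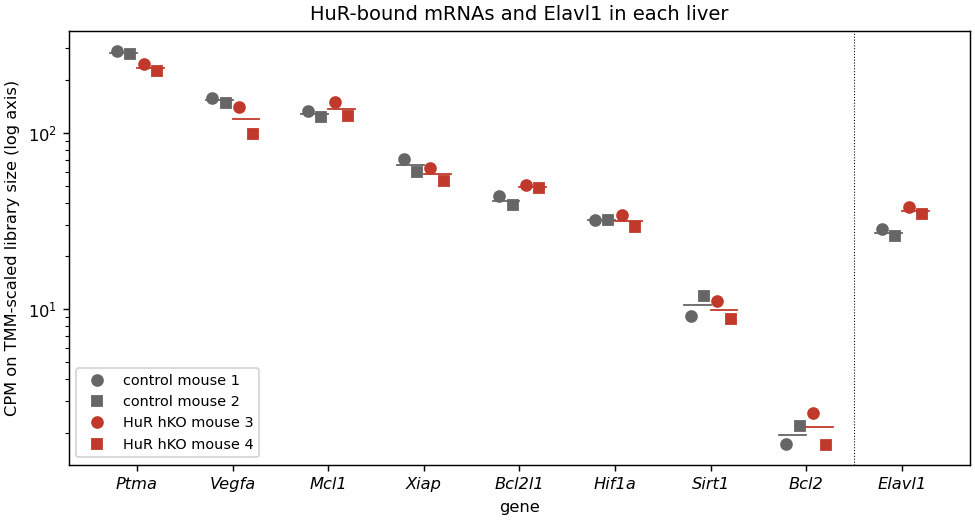
Level of each HuR-bound mRNA and of Elavl1 in each liver, in CPM on TMM-scaled library sizes (log axis). Points are single mice (grey, control mice 1 and 2, red, HuR hKO mice 3 and 4) and short lines are group means. Ptma, at 224 to 290.3 CPM, was the highest of the 8 in CPM and Bcl2, at 1.70 to 2.58 CPM, the lowest.

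The intervals set limits on what could have been missed. The 95% interval of the fold change lay within a 2-fold change either way for 8 of the 8 genes, and for 75.2% of all genes tested. The narrowest intervals, those of Ptma, Bcl2l1 and Hif1a, did not reach beyond a fall to 0.666 or a rise to 1.48 times the control level. Bcl2, with few counts, had the widest, from 0.593 to 1.99 times. With 1 mouse left out in turn, between 6 and 7 of the 8 intervals lay within 2-fold, that of Bcl2 being wider each time and that of Vegfa without mouse 3.

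**Figure D2:**
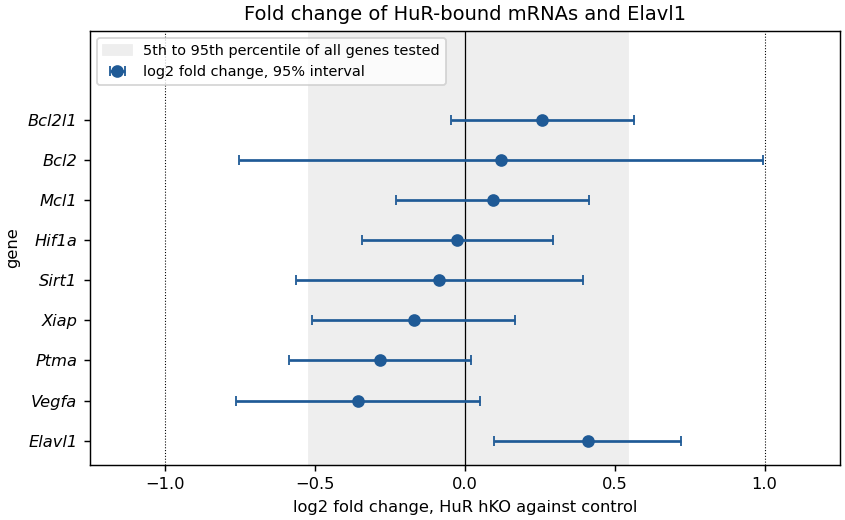
Log2 fold change of the libraries labelled HuR hKO against control, with its 95% interval, for the 8 HuR-bound mRNAs and Elavl1. The grey band spans the 5th to the 95th percentile of all genes tested (-0.52 to 0.54) and dotted lines mark a 2-fold change. The 8 points lie inside the band, and every one of their intervals includes 0, while that of Elavl1 (0.10 to 0.72) does not.

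For 3 of the 8 the groups did not overlap, Bcl2l1 being higher in the libraries labelled HuR hKO and Vegfa and Ptma lower. Such separation was common, with 19.3% of all genes tested apart in the higher direction and 18.8% in the lower. The directions are those of the labels.

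Vegfa, on chromosome 17 from 46016993 to 46032369, had the largest fitted difference of the 8. It was at 156 and 148.1 CPM in the control mice, and at 139.7 and 98.1 CPM in mice 3 and 4. Mouse 3 was close to the controls and mouse 4 stood clearly below the other 3. The mean was 152.1 ± 5.68 CPM (SD, n = 2) in the control mice and 118.9 ± 29.4 CPM (SD, n = 2) in the others. The log2 fold change was -0.36 (SE 0.18, edgeR adjusted p = 0.693). It rested on mouse 4. Without mouse 3 it was -0.65, and without mouse 4 it was -0.12, both from edgeR. When no filter on low counts was used, the unadjusted p was 0.034 (adjusted p = 0.624), both from edgeR. The share of all genes with an unadjusted p under 0.05 in that setting was not computed.

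Ptma, on chromosome 1 from 86526726 to 86530712, was at 290.3 and 278.6 CPM in the control mice and at 243.8 and 224.1 CPM in mice 3 and 4. Both controls were above both other mice, and the mice of a group lay close together. The log2 fold change of -0.28 (SE 0.13) had the smallest adjusted p of the 8, 0.677 from edgeR, and stayed between -0.36 and -0.22 with each mouse left out. Prothymosin alpha has processed pseudogenes. Gm4617 and Gm9800 share 15.3% and 12.3% of the 50-base words of the Ptma transcripts, with 2 to 8 and 84 to 101 counts in a library, against 3494 to 4222 for Ptma. Its counts are uncertain by what the counting assigned between these copies, and no other gene shared 5% or more of the words of any of the 8.

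Bcl2l1, on chromosome 2 from 152780668 to 152831728, was at 43.7 and 38.7 CPM in the control mice and at 50.2 and 48.4 CPM in mice 3 and 4. The libraries labelled HuR hKO were the higher ones and lay within 2 CPM of each other. The log2 fold change was 0.26 (SE 0.13, edgeR adjusted p = 0.699), and between 0.17 and 0.34 with each mouse left out.

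The other anti-apoptotic genes overlapped between the groups. Mcl1, on chromosome 3 from 95658788 to 95663176, encodes a short-lived protein that hepatocytes are known to depend on. It was at 133 and 123.4 CPM in the control mice and at 148.4 and 125 CPM in mice 3 and 4, so mouse 4 lay between the controls (log2 fold change 0.09, SE 0.14, edgeR adjusted p = 0.91). Xiap, on chromosome X from 42059679 to 42109656, was at 70.8 and 59.8 CPM in the control mice and at 62.6 and 53.5 CPM in mice 3 and 4. Its log2 fold change was -0.17 (SE 0.15, edgeR adjusted p = 0.838), with mouse 3 between the controls. Bcl2, on chromosome 1 from 106538178 to 106714274, was counted sparsely, with 23 and 29 counts in the control mice and 37 and 32 in mice 3 and 4. The highest and the lowest level, 2.58 and 1.70 CPM, were those of the libraries labelled HuR hKO, and the log2 fold change was 0.12 (SE 0.38, edgeR adjusted p = 0.965). Bcl2 is known to be abundant in lymphocytes. Markers of B cells summed to 4.06 and 31.3 CPM in the control mice and to 18.5 and 21.1 CPM in mice 3 and 4, and those of T and NK cells to between 3.16 and 4.78 CPM. Their part in the Bcl2 level was not tested, and in bulk liver fewer cells of a type and less RNA per cell cannot be told apart.

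Hif1a, on chromosome 12 from 73901375 to 73947530, was at 32.1 and 32 CPM in the control mice and at 34.1 and 29 CPM in mice 3 and 4. The mice labelled HuR hKO lay on either side of the controls, and the log2 fold change was -0.02 (SE 0.14, edgeR adjusted p = 0.981). Sirt1, on chromosome 10 from 63319005 to 63381704, was at 9.18 and 11.8 CPM in the control mice and at 11.1 and 8.76 CPM in mice 3 and 4. Its log2 fold change was -0.08 (SE 0.21, edgeR adjusted p = 0.956), and the 2 mice of each group were further apart than the group means. For Mcl1, Bcl2, Hif1a and Sirt1 the sign of the fitted difference turned when a single mouse was left out, so no direction can be given for them. Antisense genes are annotated over exons of Hif1a (Gm15283, at most 1 count), Sirt1 (Gm16145, 0 counts) and Bcl2 (D630008O14Rik, 0 counts). Gm49321, with exons that overlap those of Hif1a on its own strand, is not among the genes of the count table. Without strand, reads of a gene and its antisense partner cannot be told apart.

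The mice labelled HuR hKO differed from each other in these mRNAs. All 8 were lower in mouse 4 than in mouse 3, by 0.05 (Bcl2l1) to 0.60 (Bcl2) on the log2 scale, with a median of -0.24. Of all genes tested, 50.5% were lower in mouse 4, with a median of -0.004. The library of mouse 4 was also the deepest and had the largest share of mitochondrial counts, 7.64% against 6.56% in mouse 3. The control mice had 7.08% and 7.32%. The part of depth and of mitochondrial counts in the difference between mice 3 and 4 was not tested. Markers of stellate cells summed to between 207 and 288 CPM, the most in mouse 4, and those of Kupffer cells and macrophages to between 255 and 291 CPM, the most in mouse 3. Their part was not tested either. Between the control mice, Sirt1 and Bcl2 were higher in mouse 2 and the other 6 were lower.

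Levels per length put the 8 in an order that was the same in the means of both groups. In CPM per kilobase of annotated exon (RPKM), Ptma was at 195 ± 5.67 in the control mice and 160 ± 9.48 in the others (SD, n = 2 each), above all others. Mcl1 followed at 37.5 ± 1.90 and 39.9 ± 4.91 RPKM, and Vegfa at 35.5 ± 1.33 and 27.7 ± 6.87 RPKM. Bcl2l1 came next at 8.99 ± 0.77 and 10.8 ± 0.28 RPKM, then Xiap at 6.90 ± 0.82 and 6.13 ± 0.68 RPKM and Hif1a at 5.44 ± 0.01 and 5.36 ± 0.61 RPKM. Sirt1 was at 1.97 ± 0.35 and 1.86 ± 0.31 RPKM and Bcl2 at 0.213 ± 0.034 and 0.234 ± 0.068 RPKM. Over the 4 livers Mcl1 and Vegfa overlapped, as did Xiap and Hif1a, while the other neighbours in this order were apart. Among the 3 anti-apoptotic BCL2 family genes, Mcl1 was thus the most abundant mRNA per length and Bcl2 the least.

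Other genes of the same pathways were read from hand-written lists, described by counts and medians beside the genes tested as a whole. Of 50 other mRNAs reported as HuR targets, 41 were tested, with 19 higher and 22 lower by fitted value, a median log2 fold change of -0.04 and 0 past the adjusted threshold. In 2 of them the unadjusted p was under 0.05, as in 7.43% of all genes tested. Cdkn1a, the gene of the cell cycle inhibitor p21, had 5.62 ± 0.18 CPM (SD, n = 2) in the control mice and 11.9 ± 2.79 CPM (SD, n = 2) in the others. This log2 fold change of 1.08 (SE 0.22) had an adjusted p of 0.207 from edgeR. Without a filter on low counts Cdkn1a passed the adjusted threshold in edgeR (adjusted p = 0.0086), while DESeq2 and limma-voom called 0 genes of this and of the other 5 lists. Rhob, which encodes a small GTPase, had a fitted log2 difference of 0.27 (SE 0.13, edgeR adjusted p = 0.684).

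Around Mcl1, Bcl2 and Bcl2l1, 20 of 23 BCL2 family and apoptosome genes were tested, with 12 higher and 8 lower, a median log2 fold change of 0.05 and 0 past the adjusted threshold in edgeR. In 3 of the 20 the unadjusted p was under 0.05 (7.43% of all genes tested). Other settings with all mice gave from 1 (DESeq2) to 4 (limma-voom, and edgeR without a filter on low counts), where the share of all genes was not computed. The number also moved with a mouse left out. Bax and Bik, which promote apoptosis, had log2 fold changes of 0.48 (SE 0.17) and 0.79 (0.29), and Bcl2l12 had one of -0.65 (0.25), with adjusted p-values between 0.574 and 0.597 from edgeR. The groups did not overlap for these 3, but they were picked by p-value in the same libraries, which makes separation likely beforehand. Of all genes tested, picked by no p-value, 19.3% were apart in the higher and 18.8% in the lower direction. Of the 16 IAP genes and antagonists around Xiap, 14 were tested, with 6 higher and 8 lower, a median of -0.09 and 0 with an unadjusted p under 0.05. That number was 1 with limma-voom, and 1 in edgeR with at least 10 counts in every library or without a filter. In the main comparison the smallest p-values were those of Naip5 (log2 fold change -0.75, SE 0.36), Naip6 (-0.72, 0.54) and Diablo (0.16, 0.14). Diablo encodes the mitochondrial antagonist of XIAP. Their adjusted p-values lay between 0.68 and 0.842 from edgeR. Naip6 was counted sparsely, with 9 to 16 counts in a library, and Naip5 had 29 to 49. Naip genes resemble one another closely, and which copy a read was given to is uncertain.

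Of 32 HIF pathway and hypoxia genes around Hif1a, 26 were tested, with 9 higher and 17 lower, a median log2 fold change of -0.07 and 0 past the adjusted threshold in edgeR. Ddit4, a stress-induced inhibitor of mTORC1, had 8.70 ± 0.69 CPM in the control mice and 17.3 ± 9.33 CPM in the others (SD, n = 2 each), its 451 counts in mouse 4 set against 110 to 154 elsewhere (log2 fold change 1.01, SE 0.34, edgeR adjusted p = 0.548). Pfkfb3, a regulator of glycolysis, had 719 counts in control mouse 1 and 292 to 343 in the other 3 mice, so its groups overlapped (-0.90, SE 0.36, edgeR adjusted p = 0.619). Slc2a1, the gene of the glucose transporter GLUT1, had a log2 fold change of -0.27 (SE 0.17, edgeR adjusted p = 0.768). Ddit4 and Pfkfb3 were the 2 with an unadjusted p under 0.05, a limit that 7.43% of all genes tested passed. In edgeR, Ddit4 passed the adjusted threshold without a filter on low counts (adjusted p = 0.0434) and Pfkfb3 without control mouse 2 (0.0232).

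Of 13 VEGF ligands, receptors and partners, 11 were tested, with 7 higher and 4 lower, a median log2 fold change of 0.16 and 0 with an unadjusted p under 0.05. That number was 1 in edgeR without a filter on low counts. Nrp1, a VEGF co-receptor, was at -0.39 (SE 0.24), Tie1 at 0.19 (0.15) and Kdr, the main endothelial VEGF receptor, at 0.20 (0.16), with adjusted p-values between 0.76 and 0.826 from edgeR. The 8 endothelial markers, which include Tie1 and Kdr, were all higher by fitted value (0.11 to 0.33). Of the 13001 genes tested, 6544 were higher. None of the 8 markers had an unadjusted p under 0.05. Their summed level was 252 and 223 CPM in the control mice and 285 and 258 CPM in mice 3 and 4, and their part in the receptor values was not tested. Among 18 sirtuins and SIRT1 partners, all tested, the fitted value was above 0 for 11 and below 0 for 7 (median 0.07), and 0 passed the adjusted threshold in edgeR. The 3 with the smallest p-values were Sirt4, a mitochondrial sirtuin (log2 fold change -0.67, SE 0.19), Nmnat3, an enzyme of NAD synthesis (0.40, 0.20), and Srebf1, the gene of the lipogenic factor SREBP-1 (0.25, 0.16). Their adjusted p-values lay between 0.45 and 0.772 from edgeR. Sirt4 was the 1 with an unadjusted p under 0.05 (7.43% of all genes tested).

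**Figure D3:**
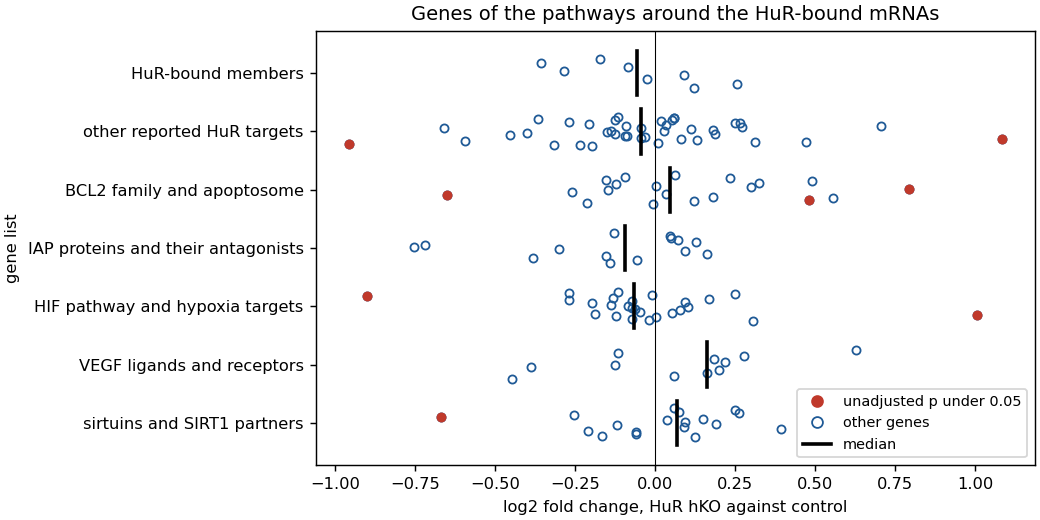
Log2 fold change of the libraries labelled HuR hKO against control for each tested gene of the HuR-bound mRNAs and of the 6 lists around them. Each circle is a gene (filled red at an unadjusted p under 0.05), spread vertically only to be seen, and black bars are list medians. The medians lie between -0.09 and 0.16.

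Across all tested genes the fitted fold change fell slightly with the number of ATTTA copies in the 3′ UTR. The median log2 fold change was 0.06 in the 3639 genes with 0 copies, 0.02 with 1 to 2, -0.04 with 3 to 6, -0.08 with 7 to 9 and -0.10 in the 820 genes with 10 or more. The 8 mRNAs lay on both sides of these medians, with Bcl2 and Mcl1 above and Xiap and Vegfa below those of genes with like numbers. The same gradient was present between mice of 1 group. In the genes with 0 copies and with 7 or more, the median log2 difference of control mouse 2 from control mouse 1 was 0.08 and -0.13, and that of mouse 4 from mouse 3 was 0.06 and -0.07, where the groups differed by 0.06 and -0.09. The 3′ UTRs of these 2 sets had median lengths of 417 and 3603 bases. Among genes with a 3′ UTR of 1000 to 2000 bases, a restriction chosen after the values were seen, the medians for the groups were 0.03 (525 genes) and -0.09 (205 genes). In the same 2 sets, control mouse 2 differed from control mouse 1 by medians of 0.02 and -0.12. Mouse 4 differed from mouse 3 by 0.01 and -0.09. Genes are not independent replicates, and no test was made of this gradient.

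**Figure D4:**
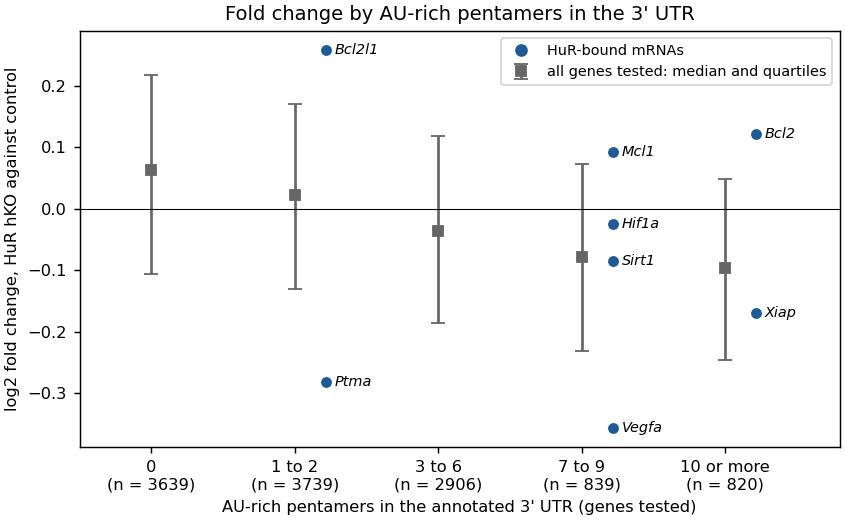
Log2 fold change of the libraries labelled HuR hKO against control by the number of AU-rich pentamers in the longest annotated 3′ UTR. Squares and bars are the median and quartiles over tested genes, and blue points are the 8 HuR-bound mRNAs, moved sideways to be seen. The medians go from 0.06 to -0.10, a range smaller than the span of the quartiles in any of the 5 classes.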

How the data were processed

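Liver RNA of 4 mice was sequenced, and the authors deposited read counts on genes as whole numbers without normalization, 1 column per mouse. The submitters' processing notes name RSEM and GRCm38, with no version. If RSEM made the table, the counts are its estimates rounded to whole numbers, and how it shared reads between copies bears on Ptma. The aligner, annotation and use of strand are not given in the sources used here. Columns were matched to mice by name, with 0 left over. Nothing in the labels says how libraries were batched, so a batch shared by a group could not be told apart from it. The p-values rest on the spread between mice within groups, shared over genes.

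Symbols were found for 46005 of 46603 identifiers, and coordinates, exon lengths and 3′ UTRs are those of GENCODE M21 (GRCm38), which held 46091 of them. Counts were filtered with edgeR's filterByExpr (minimum 10 counts, total at least 15), scaled with TMM and tested with edgeR 4.0.16 (glmQLFit and glmQLFTest, R 4.3.3). The standard error is the log2 fold change divided by the root of F, and 95% intervals use the test's degrees of freedom. The script was tested on simulated counts. Every pair of libraries differed by more than sampling noise (chi-square per degree of freedom 22.7 to 36.3), so each counted as 1 replicate. Alternatives were DESeq2's size factors, upper quartile factors, total counts, no filter, at least 10 counts in every library, the DESeq2 1.42.0 Wald test, limma-voom (limma 3.58.1) and each mouse left out, where the lone library of a group is assumed to vary like the others.

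The genes and lists were chosen with earlier results of these data known. Named are the 8 genes, Elavl1, the 3 genes of each list with the smallest p-value and any with an adjusted p under 0.05 (0 genes), markers with an adjusted p under 0.05 (0 genes), and pseudogenes or overlapping genes of the 8. One gene that this rule names is not reported here. Tables were made in python 3.11.15 (pandas 2.3.3) and drawn with matplotlib 3.10.9.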

Additional observations from a re-analysis of the deposited data

How the results depend on the processing

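None of the 8 mRNAs had an adjusted p-value under 0.05 in any of the 11 alternatives. The sign of a fold change turned in 6 of the 88 values recomputed, all with a mouse left out. With each mouse left out in turn, the log2 fold changes spanned -0.28 to 0.11 (Sirt1), -0.16 to 0.089 (Hif1a), -0.056 to 0.21 (Mcl1), -0.21 to 0.40 (Bcl2), -0.65 to -0.12 (Vegfa) and -0.30 to -0.06 (Xiap). Elavl1 stayed between 0.32 and 0.48. One of the 8, Vegfa, had an unadjusted p under 0.05 in edgeR without a filter on low counts. The share of all genes under that limit in that setting was not computed. Separation of the groups with 1 library left out is not given for the 8. With 3 libraries it comes more easily than with 4, and its share over all genes was not computed. Over all genes, the 3 adjusted calls (2 higher, 1 lower) became 85 with the DESeq2 Wald test (50 higher, 35 lower), 161 without a filter (80 and 81) and 8 with total counts, and 0 to 45 with a mouse left out, of which 0 was without mouse 3, and the cause was not tested. List medians moved with a mouse left out, from -0.092 to -0.055 for other HuR targets, -0.021 to 0.11 for the BCL2 family, -0.10 to -0.056 for the IAP genes, -0.10 to 0.0097 for the HIF pathway, -0.026 to 0.23 for VEGF ligands and receptors and -0.017 to 0.093 for sirtuins. Other HuR targets were at -0.0539 with at least 10 counts in every library and at -0.0536 with upper quartile factors, and IAP genes at -0.066 with the former. The VEGF median of 0.16 was 0.049 without a filter and 0.10 with at least 10 counts, and the BCL2 family median of 0.049 was 0.080 without a filter. In the shortest annotated 3′ UTR, 6 of the 8 mRNAs held ATTTA, all but Vegfa and Bcl2l1. The difference in median log2 fold change between genes with 7 or more copies and genes with 0 was -0.15 and lay between -0.26 and -0.05 with a mouse left out, comparisons chosen after seeing the data. Depth limits Bcl2 the most, with 23 to 37 counts, and 2 mice in a group limit all 8.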
